A study of Mus musculus with 24 samples.

Results

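The 10 genes described here encode enzymes that make serine, carry carbon units on folate, and make proline and asparagine. They are Phgdh, Psat1 and Psph of serine synthesis, Shmt1, Shmt2, Mthfd2 and Mthfd1l of folate metabolism, Aldh18a1 and Pycr1 of proline synthesis, and Asns of asparagine synthesis. Members were found by symbol in a count table that writes symbols in capitals (PHGDH, PSAT1, PSPH, SHMT1, SHMT2, MTHFD2, MTHFD1L, ALDH18A1, PYCR1 and ASNS) and pairs each with 1 Ensembl transcript. Each matched 1 of its 51733 rows, and all 10 passed the filter on low counts in both kinds of library.

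Libraries were made from hippocampi of male C57BL/6 mice aged 2 to 3 months, in which a tagged ribosomal protein (RiboTag) allows ribosomes of Cre-expressing cells to be precipitated from a lysate. Each of 12 mice gave an immunoprecipitate, which holds ribosome-bound RNA, and an input, which holds RNA of the whole lysate. Conditional knock-in (cKI) mice carried eIF2α with alanine in place of its regulatory serine on both alleles, and a floxed wild-type eIF2α transgene that CaMKIIα-Cre removes. Control mice are labelled as standard CaMKIIα-Cre+ animals, so Cre was present in every group. Cre was driven by the CaMKIIα promoter, which is active in excitatory forebrain neurons, and other cells of a cKI mouse keep the transgene. Mice were taken 1 h after fear conditioning (a tone paired with a foot shock) or naive. Genotype, training and fraction make 8 groups of 3 libraries, and each library came from the pooled hippocampi of 1 mouse. Across training states, 6 cKI mice stood against 6 control mice in each fraction. Which of the training protocols described in the labels these mice received is not stated there.

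Serine is made from an intermediate of glycolysis in a short chain of steps by Phgdh, Psat1 and Psph, and the Shmt enzymes pass a carbon unit of serine to folate, in the cytosol (Shmt1) or in mitochondria (Shmt2). Proline is built from glutamate by Aldh18a1 and the Pycr enzymes, and Asns adds an amide group to aspartate. In the brain, serine synthesis is known mainly from astrocytes, and several of these genes are textbook targets of Atf4, a transcription factor that is translated more when eIF2α carries its phosphate.

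Promoter sequences of all 10 genes were matched in RefSeq (GRCm38.p6) and searched on both strands for TGATGNAA, the core of the C/EBP-ATF response element. Asns and Pycr1 held it, which is 2 of 10 genes, against 4.51% of 27025 genes with a promoter window of the same length. Asns held TGATGAAA, 23 bases before its start site, and Pycr1 held TGATGCAA, 103 bases before its start site. The TGATGCAA form was found in 1.03% of genes. The 250 bases before the start site are shown for these genes and for Mthfd2, the enzyme transcript that differed between genotypes in immunoprecipitates, with the motif in capitals. Each is written 5′ to 3′ along the gene, which lies on the minus strand.
Asns, chr6:7693210-7693459: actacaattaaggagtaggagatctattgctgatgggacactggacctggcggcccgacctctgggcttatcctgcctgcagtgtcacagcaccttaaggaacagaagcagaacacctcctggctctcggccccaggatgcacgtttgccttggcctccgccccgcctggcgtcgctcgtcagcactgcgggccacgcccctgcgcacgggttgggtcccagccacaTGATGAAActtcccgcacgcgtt
Pycr1, chr11:120643749-120643998: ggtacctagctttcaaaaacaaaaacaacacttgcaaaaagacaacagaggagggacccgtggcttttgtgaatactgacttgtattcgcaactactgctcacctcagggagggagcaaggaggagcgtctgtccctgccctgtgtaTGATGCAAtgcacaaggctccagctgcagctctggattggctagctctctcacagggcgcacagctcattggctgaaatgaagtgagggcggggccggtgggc
Mthfd2, chr6:83317605-83317854: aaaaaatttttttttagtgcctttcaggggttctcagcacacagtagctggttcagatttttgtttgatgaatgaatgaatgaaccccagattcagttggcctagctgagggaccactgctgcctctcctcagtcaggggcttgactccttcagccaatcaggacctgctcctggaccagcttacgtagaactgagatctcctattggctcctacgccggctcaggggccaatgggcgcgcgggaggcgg
The Mthfd2 window held no match to the motif. A match here is a string of letters, not a measured binding site, and the remaining 7 genes likewise had none of these letters in their windows.

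Total counts were 30.6 to 43.5 M per immunoprecipitate and 28.8 to 37.7 M per input. Levels are given as CPM, counts scaled to the same library total after TMM adjustment, so they can be compared for 1 gene between libraries but not between genes. Transcripts of Camk2a averaged 5110 ± 601 CPM in immunoprecipitates and 2630 ± 256 CPM in inputs (SD, n = 12 each). Of 10 excitatory neuron markers 9 rose in immunoprecipitates relative to input, at a median log2 fold change of 0.89, and all 15 astrocyte markers fell, at a median of -3.90. Eif2s1, which encodes eIF2α, was at 35.1 to 40.8 CPM in cKI inputs and 29.9 to 33.4 CPM in control inputs, and its gene-level count does not separate the mutant, normal and transgene copies. The labels do not say whether control mice carry the transgene. Atf4 was at 80.1 to 88.9 CPM in cKI inputs and 101 to 120 CPM in control inputs, and at 97.4 to 145 CPM in cKI immunoprecipitates and 133 to 178 CPM in control immunoprecipitates. The labels give each library a number that reads as a sequencing lane. All 6 cKI inputs carry lane 4, while 2 control inputs carry lane 4 and 4 carry lane 5. Of the immunoprecipitates, 4 from cKI mice carry lane 5 and 2 carry lane 6, and all 6 from control mice carry lane 6. Lane and genotype are thus largely confounded. Only naive control inputs and cKI immunoprecipitates at 1 h hold more than 1 lane within a group. In each a single library carries lane 5, so any adjustment for lane leans on that library.

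**Figure D1:**
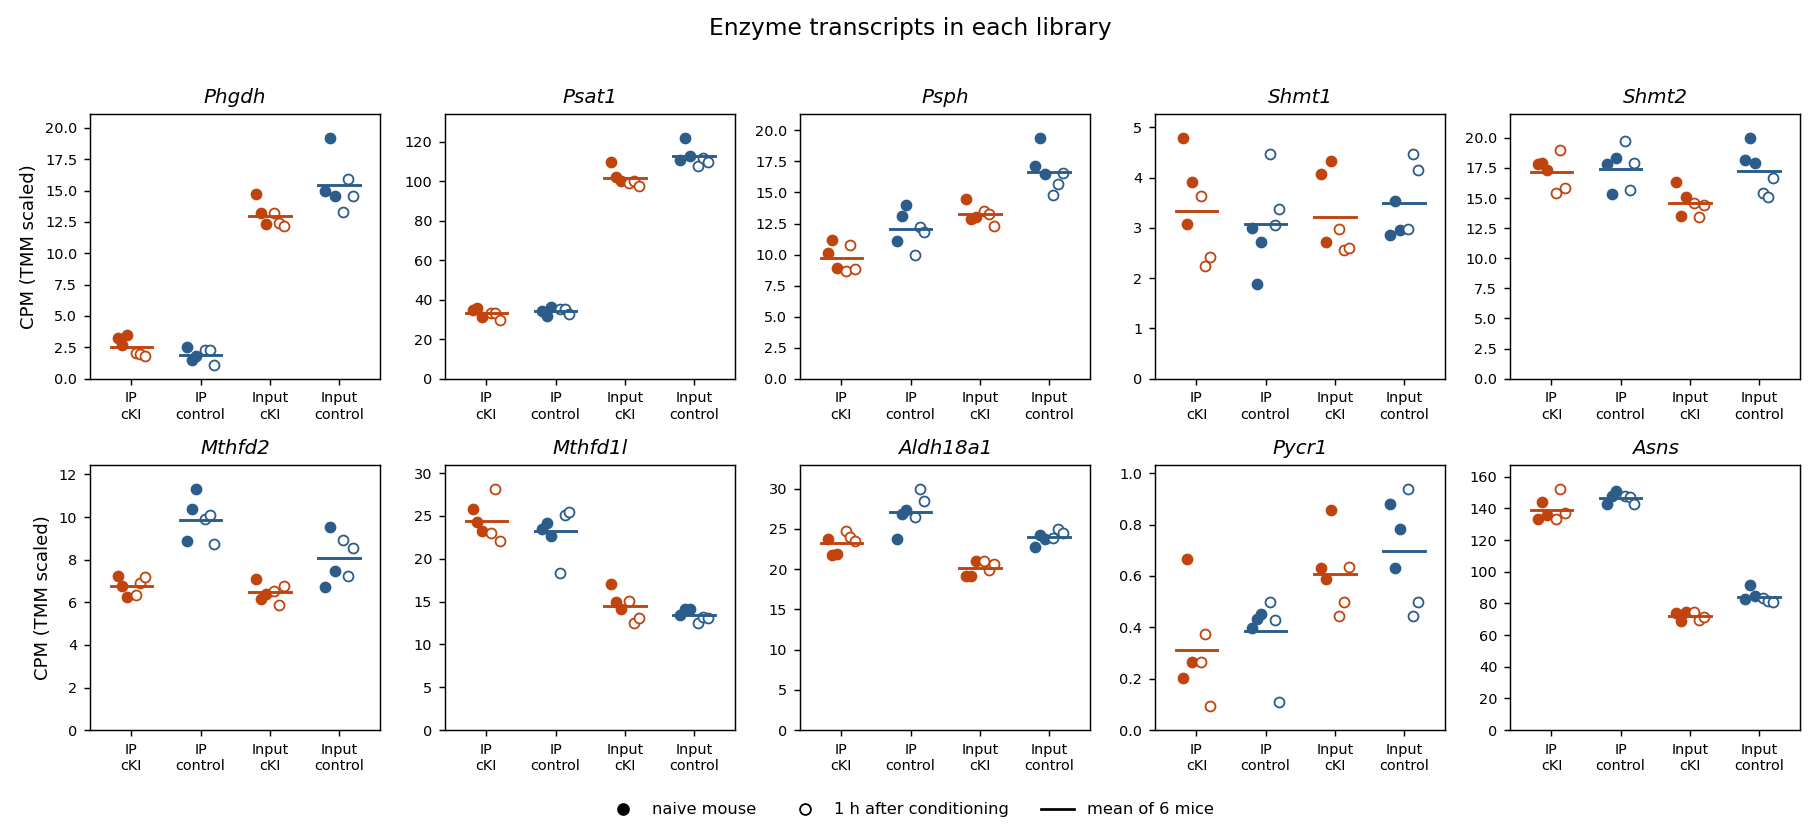
CPM of each enzyme transcript (vertical axes, each starting at 0) in every library, grouped as cKI and control immunoprecipitates (IP) and cKI and control inputs. Filled points are naive mice, open points mice taken 1 h after conditioning, and lines are means of 6 mice. Phgdh and Psat1 lie far lower in all immunoprecipitates than in any input, and Asns and Mthfd1l lie higher.

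Relative to input, the 3 serine synthesis transcripts and Pycr1 fell in immunoprecipitates, and Asns, Mthfd1l, Aldh18a1, Mthfd2 and Shmt2 rose. In edgeR's quasi-likelihood test with Benjamini-Hochberg adjustment over all genes and a threshold of 0.05, 5 of 10 members were higher and 4 lower. Over the 17453 genes tested 85.9% passed, 42.8% higher and 43.1% lower, so a call alone says little here. The members' median log2 fold change was 0.03, beside -0.01 for all genes, and their values ran from -2.69 to 0.87. Ranges of the 12 immunoprecipitates and 12 inputs did not overlap for Phgdh, Psat1, Mthfd1l and Asns, 4 of 10 members, against 47.8% of all genes. Both fractions of a mouse come from the same lysate. Which cells express a gene, how far its RNA is bound by ribosomes and carryover of other RNA cannot be told apart here. Between bulk samples of different mice, fewer cells of a type and less RNA per cell cannot be told apart either.

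Phgdh, which carries out the first step of serine synthesis, had the largest difference between fractions. Its lowest, median and highest values were 1.08, 2.19 and 3.47 CPM in immunoprecipitates, against 12.2, 13.9 and 19.2 CPM in inputs. Every immunoprecipitate lay below every input, and the means were 2.23 ± 0.697 and 14.2 ± 1.97 CPM (SD, n = 12 each). On the log2 scale this was -2.69 (SE 0.09, edgeR adjusted p 1.1e-17). Within single mice the log2 ratio of immunoprecipitate to input ran from -3.76 to -1.83.

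Psat1, the aminotransferase of the next step, was at 29.8, 34.0 and 36.3 CPM (lowest, median, highest) in immunoprecipitates, against 97.8, 109 and 122 CPM in inputs. Its groups were also fully apart (log2 -1.66, SE 0.03, edgeR adjusted p 1.8e-22), and single mice ran from -1.94 to -1.51. Psph, the phosphatase that releases serine, was at 8.64, 11 and 14 CPM in immunoprecipitates, against 12.3, 14.6 and 19.4 CPM in inputs. Its ranges overlapped, yet it was lower in the immunoprecipitate of 12 of 12 mice (log2 -0.46, SE 0.05, edgeR adjusted p 4.1e-08). Differences between these genes were not tested. The 15 astrocyte markers ran from -4.82 to -2.33 on the same scale, so Phgdh lay inside their range and Psat1 and Psph above it.

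The folate enzymes were close to the average gene, with Mthfd1l as the exception. Mthfd1l, which releases formate from folate in mitochondria, was at 18.3, 23.9 and 28.1 CPM in immunoprecipitates, against 12.5, 13.7 and 17.1 CPM in inputs. It was higher in the immunoprecipitate of 12 of 12 mice, without overlap (log2 0.77, SE 0.05, edgeR adjusted p 4.7e-12). Mthfd2, a mitochondrial dehydrogenase of the same branch, was at log2 0.18 (SE 0.06, edgeR adjusted p 0.01) and Shmt2, which feeds that branch from serine, at 0.13 (SE 0.05, edgeR adjusted p 0.014). Both were higher in the immunoprecipitate of 10 of 12 mice. Shmt1, the cytosolic form, was at 1.88, 3.07 and 4.79 CPM in immunoprecipitates, against 2.55, 2.97 and 4.47 CPM in inputs, and did not pass (log2 -0.07, SE 0.11, edgeR adjusted p 0.56).

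Aldh18a1, which starts proline synthesis from glutamate, was at 21.8, 24.4 and 29.9 CPM in immunoprecipitates, against 19.2, 21.9 and 25 CPM in inputs. It was higher in 12 of 12 mice by a small amount (log2 0.19, SE 0.03, edgeR adjusted p 1e-05). Pycr1, which completes proline, rested on few reads, with 3 to 23 counts per immunoprecipitate and 15 to 34 per input, and was lower in immunoprecipitates (log2 -0.89, SE 0.22, edgeR adjusted p 0.00075; lower in 11 of 12 mice). Asns had the opposite pattern to the serine enzymes. It was at 133, 144 and 152 CPM in immunoprecipitates, against 69.0, 77.7 and 91.6 CPM in inputs, again without overlap (log2 0.87, SE 0.03, edgeR adjusted p 1.3e-18). Its log2 ratio in single mice ran from 0.69 to 1.12, and the 10 excitatory neuron markers ran from 0.13 to 1.5 with a median of 0.89.

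Small fraction differences depended on scaling. With library totals in place of TMM the median of all genes moved by -0.31 on the log2 scale, and Shmt2 (-0.17), Aldh18a1 (-0.12) and Mthfd2 (-0.13) changed sign (edgeR adjusted p 0.0018, 0.0014 and 0.053), while Shmt1 passed as lower (-0.38, edgeR adjusted p 0.0041). The calls of Shmt2 and Mthfd2 were also lost without naive cKI immunoprecipitate replicate 2 (edgeR adjusted p 0.2 and 0.083), with DESeq2's size factors in edgeR (adjusted p 0.23 and 0.092) and in DESeq2 (adjusted p 0.25 and 0.1), and those of Shmt2, Mthfd2, Aldh18a1 and Pycr1 with lane as a covariate, whereas Phgdh, Psat1, Psph, Mthfd1l and Asns passed in each of 30 alternatives.

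**Figure D2:**
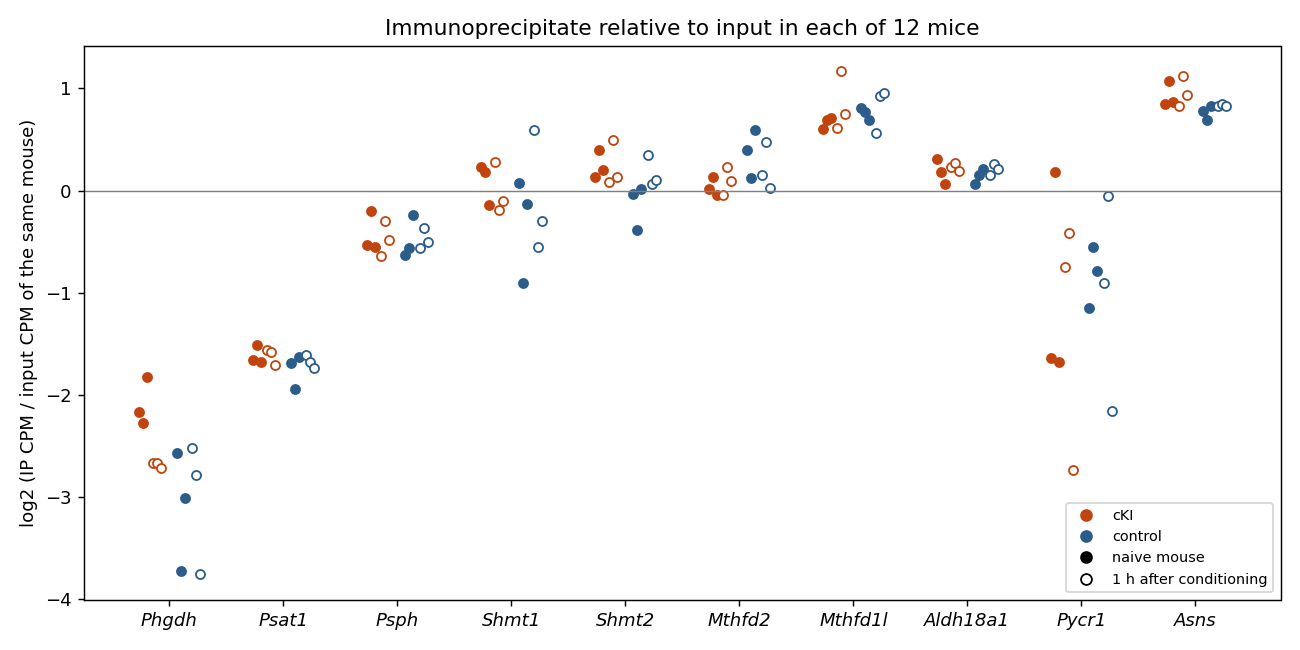
Log2 ratio of immunoprecipitate CPM to input CPM of the same mouse (vertical axis) for each enzyme, with 1 point per mouse, cKI left of control, filled for naive and open for 1 h after conditioning. Asns and Mthfd1l lie above 0 and Phgdh, Psat1 and Psph below 0 in all 12 mice, while Pycr1 is widely scattered.

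The other genes of these pathways, taken from lists of related enzymes, showed how each branch was spread between fractions. Of 9 tested genes that use serine or glycine, 6 fell and 2 rose, at a median of -2.26 and a highest value of 0.41. For these lists too, 42.8% of all genes were called higher and 43.1% lower. Gldc and Amt of the glycine cleavage system were at -3.61 and -2.27 and Cbs, which condenses serine with homocysteine, at -3.19 (edgeR adjusted p 1.3e-22, 3.7e-20 and 2.7e-22). Of 19 other folate genes 12 fell and 6 rose, at a median of -0.40. Aldh1l1 (-2.99) and its mitochondrial relative Aldh1l2 (-2.81), which oxidise formyl-folate, were among those that fell, and Gart (0.51), of purine synthesis, among those that rose (edgeR adjusted p 5.1e-22, 2e-15 and 2.3e-14).

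Of 5 tested proline genes beside the members 2 fell and 1 rose, at a median of 0.03 and a highest value of 1.02. Prodh, which breaks proline down, fell (-2.95), as did Aldh4a1 (-0.78), which acts after it (edgeR adjusted p 3.8e-20 and 4.8e-09). Of 8 genes that handle aspartate, asparagine and glutamine 4 fell and 4 rose, at a median of -0.75 and a highest value of 0.67. Glul, which makes glutamine in astrocytes, was at -3.28, the asparaginase gene Asrgl1 at -1.62 and Aspa, which cleaves N-acetylaspartate in oligodendrocytes, at -3.88 (edgeR adjusted p 3.2e-25, 3.5e-23 and 2.4e-21).

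**Figure D3:**
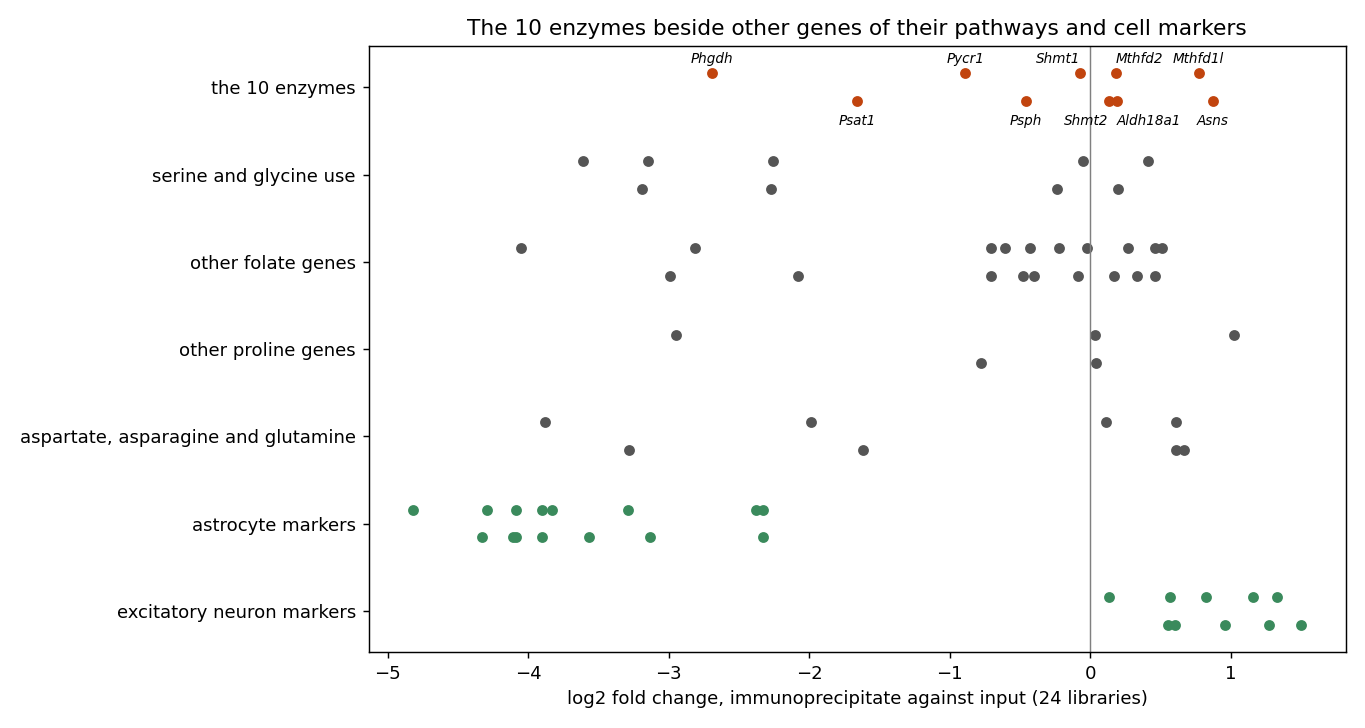
Log2 fold change of immunoprecipitate against input over 24 libraries (horizontal axis) for the 10 enzymes, 4 lists of related genes, astrocyte markers and excitatory neuron markers (rows). Each point is a gene. Phgdh lies among the higher astrocyte markers, and Asns and Mthfd1l lie within the range of the excitatory neuron markers.

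Between genotypes, more enzymes passed the threshold in inputs than in immunoprecipitates. Over both training states Asns, Aldh18a1, Psph and Shmt2 were lower in cKI inputs than in control inputs, by log2 0.19 to 0.31 in size. That is 4 of 10 members lower and 0 higher by edgeR, where 3.15% of the 17232 genes tested passed, 1.15% higher and 2% lower. Values were negative for 9 of 10 members, with a median of -0.20 beside 0 for all genes, and 8 of 10 had an unadjusted p under 0.05. The share of all genes under that unadjusted p was not counted, here or in the later comparisons. Ranges of the 6 cKI and 6 control inputs were apart for Asns, Aldh18a1 and Psph, 3 of 10 members, against 3.54% of all genes.

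Asns was at 73.9, 69.0 and 74.6 CPM in naive cKI inputs and at 74.7, 69.7 and 71.5 CPM in cKI inputs 1 h after conditioning. In control inputs it was at 83.0, 91.6 and 84.4 CPM in naive mice and at 83.4, 81.6 and 80.7 CPM 1 h after conditioning. All 6 cKI inputs lay below all 6 control inputs, with means of 72.2 ± 2.51 and 84.1 ± 3.90 CPM (SD, n = 6 each; log2 -0.19, SE 0.03, edgeR adjusted p 0.0074).

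Aldh18a1 was at 19.2, 19.2 and 21.0 CPM in naive cKI inputs and at 21.0, 19.9 and 20.6 CPM in cKI inputs after conditioning. In control inputs it was at 22.8, 24.2 and 23.7 CPM in naive mice and at 23.9, 25 and 24.5 CPM after conditioning. The 6 cKI values again lay below the 6 control values, with means of 20.2 ± 0.836 and 24.0 ± 0.767 CPM (SD, n = 6 each; log2 -0.23, SE 0.04, edgeR adjusted p 0.0076).

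Psph was at 14.5, 12.9 and 13 CPM in naive cKI inputs and at 13.5, 13.3 and 12.3 CPM in cKI inputs after conditioning. Control inputs held 17.1, 19.4 and 16.5 CPM in naive mice and 14.8, 15.7 and 16.6 CPM after conditioning. The groups did not overlap, although the highest cKI value (14.5 CPM) and the lowest control value (14.8 CPM) were close (log2 -0.31, SE 0.05, edgeR adjusted p 0.0075). Shmt2 was at 13.4, 14.5 and 16.3 CPM (lowest, median, highest) in cKI inputs, against 15.1, 17.3 and 20.0 CPM in control inputs. Its ranges overlapped (log2 -0.21, SE 0.05, edgeR adjusted p 0.041).

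The other enzymes did not pass by edgeR in inputs, whereas DESeq2 called 6 of 10 members, adding Psat1 and Mthfd2 (DESeq2 adjusted p 0.0097 and 0.045). Over all genes DESeq2 called 1.74 times as many as edgeR in this comparison. Psat1 was at 97.8, 100 and 110 CPM in cKI inputs, against 108, 112 and 122 CPM in control inputs (log2 -0.12, SE 0.03, edgeR adjusted p 0.054, over a range of 0.0097 to 0.2 in 18 alternatives). Mthfd2 was at 5.89, 6.46 and 7.10 CPM in cKI inputs, against 6.73, 8.01 and 9.52 CPM in control inputs (log2 -0.29, SE 0.09, edgeR adjusted p 0.077, over a range of 0.045 to 0.21). Values were -0.22 for Phgdh, -0.11 for Shmt1 and -0.17 for Pycr1, and Mthfd1l alone was positive at 0.14, with edgeR adjusted p of 0.11, 0.65, 0.69 and 0.21.

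Asns, Aldh18a1 and Psph passed with any 1 of the 12 inputs left out, and in 17 of 18 alternatives. The exception was lane as a covariate, under which 0 of 10 members passed and the values were -0.21, -0.20 and -0.39 (edgeR adjusted p 0.13, 0.16 and 0.096). Lane was estimated there from naive control inputs, where replicate 3 alone carries lane 5, so that fit cannot settle the part of lane. Shmt2 passed in 7 of 18 alternatives, and of the 12 omissions only without naive cKI replicate 1 or naive control replicates 2 or 3, with edgeR adjusted p of 0.12 at most in the other omissions. Markers of other cells moved with genotype in the same inputs: 6 of 15 astrocyte markers were lower in cKI inputs (list median -0.14) and 7 of 10 oligodendrocyte markers (list median -0.27), with none of either list higher or at a count of 0. Summed, the astrocyte markers made 5390 to 5570 CPM in cKI inputs and 5170 to 5820 CPM in control inputs, and the oligodendrocyte markers 3610 to 4410 CPM in cKI inputs and 4030 to 5770 CPM in control inputs. The part of these cells in the enzymes' differences was not tested.

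Among related genes in the same inputs, Cbs (-0.27), Aldh4a1 (-0.48) and Got1 (-0.18), the cytosolic aspartate aminotransferase, were lower in cKI inputs (edgeR adjusted p 0.022, 0.0012 and 0.0089). These were 1 of 9 genes of serine and glycine use, 1 of 5 other proline genes and 1 of 8 genes of aspartate, asparagine and glutamine. Of 19 other folate genes 0 passed in edgeR. None of the 4 lists had a gene that was higher.

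In immunoprecipitates, Mthfd2 was the enzyme transcript that differed between genotypes. It was lower in cKI mice, and it was 1 of 10 members to pass, with 1.69% of 15238 genes passing and 1.04% lower. In naive cKI immunoprecipitates it was at 7.22, 6.75 and 6.24 CPM, and in cKI immunoprecipitates after conditioning at 6.33, 6.91 and 7.18 CPM. Control immunoprecipitates held 8.86, 10.4 and 11.3 CPM in naive mice and 9.91, 10.1 and 8.73 CPM after conditioning. All 6 cKI values lay below all 6 control values, with means of 6.77 ± 0.418 and 9.87 ± 0.954 CPM (SD, n = 6 each). In log2 terms this was -0.54 (SE 0.08, edgeR adjusted p 0.0074), a level in cKI mice of 0.688 times that in controls. Mthfd2 was the only member without overlap, beside 1.67% of all genes. In the same libraries 2 of 10 oligodendrocyte markers were lower in cKI mice (list median -0.28), with sums of 259 to 332 CPM in cKI and 279 to 392 CPM in control immunoprecipitates, and their part was not tested.

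The Mthfd2 difference in immunoprecipitates passed in 16 of 17 alternatives, among them each omission of a library (log2 -0.59 to -0.50, edgeR adjusted p 0.035 at most). With lane as a covariate it was -0.43 (SE 0.14, edgeR adjusted p 0.6), and 3 genes of the whole table passed in that fit. Among immunoprecipitates at 1 h, 2 cKI libraries of lane 6 could be set against 3 control libraries of lane 6. Mthfd2 was at -0.43 there (SE 0.13, edgeR adjusted p 0.47). The lane fit draws on these same libraries, and its lane difference rests on the cKI library at 1 h of lane 5. The 2 values are therefore not separate evidence.

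The other members did not pass by edgeR in immunoprecipitates, whereas DESeq2 called 3 of 10, adding Aldh18a1 and Psph. Over all genes DESeq2 called 3.02 times as many as edgeR in this comparison. Aldh18a1 was at 21.8, 23.7 and 24.7 CPM (lowest, median, highest) in cKI mice, against 23.7, 27.1 and 29.9 CPM in control mice (log2 -0.22, SE 0.05, edgeR adjusted p 0.064). It passed without naive control replicate 1 (edgeR adjusted p 0.035) and in DESeq2 (adjusted p 0.013), over a range of 0.013 to 0.61 in 17 alternatives. Psph was at 8.64, 9.48 and 11.2 CPM in cKI mice, against 10, 12 and 14 CPM in control mice (log2 -0.30, SE 0.09, edgeR adjusted p 0.11, DESeq2 adjusted p 0.049, with up to 0.73 in 17 alternatives). Asns, which was lower in cKI inputs, was at 133, 137 and 152 CPM in cKI immunoprecipitates, against 143, 147 and 151 CPM in control immunoprecipitates, and its ranges overlapped (log2 -0.07, SE 0.04, edgeR adjusted p 0.4). Phgdh had the highest value, 0.38 (SE 0.19, edgeR adjusted p 0.3), and Psat1, Shmt1, Shmt2, Mthfd1l and Pycr1 were at -0.05, 0.12, -0.02, 0.08 and -0.33, with edgeR adjusted p from 0.65 to 0.94. In the 4 related lists 0 genes passed by edgeR, although Aldh4a1 (-0.53, edgeR adjusted p 0.077) had a value close to its input one.

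**Figure D4:**
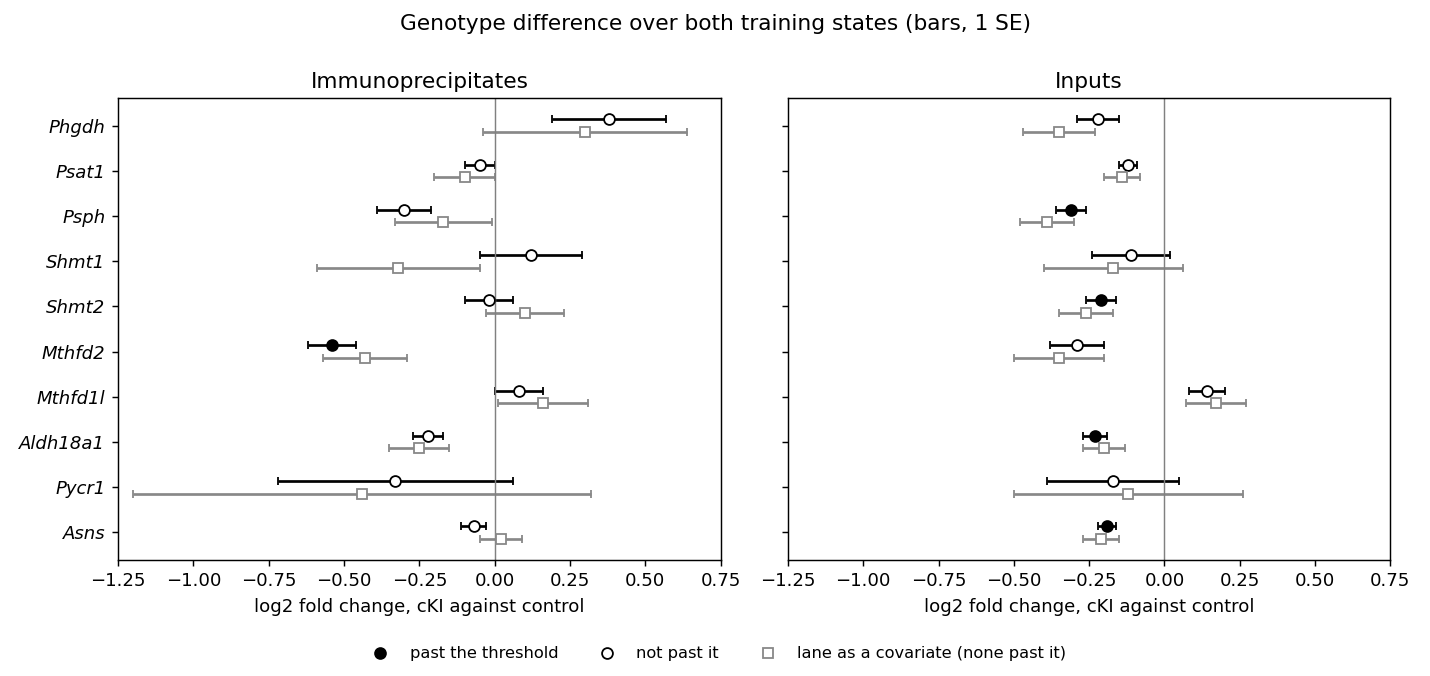
Log2 fold change of cKI against control (horizontal axes) over both training states for each enzyme, in immunoprecipitates (left) and inputs (right), with bars of 1 SE. Filled circles passed edgeR's test at an adjusted p of 0.05, open circles did not, and grey squares show the same difference with lane as a covariate, where none passed. In inputs 9 of 10 circles lie below 0, and in immunoprecipitates Mthfd2 lies lowest, at -0.54.

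Split by training state, few enzymes passed. In naive inputs Psph (log2 -0.36, SE 0.07, edgeR adjusted p 0.038) and Asns (log2 -0.22, SE 0.05, edgeR adjusted p 0.044) were lower in cKI mice, 2 of 10 members beside 0.859% of genes, or 0.557% lower. Aldh18a1 and Shmt2 were at -0.22 and -0.29 there (edgeR adjusted p 0.083 and 0.082). DESeq2 called 3 members, adding Shmt2, and over all genes 3.39 times as many as edgeR. In these naive inputs 8 of 10 oligodendrocyte markers were lower in cKI mice (list median -0.39), with sums of 3780 to 4410 CPM in cKI and 5350 to 5770 CPM in control inputs, and their part was not tested. Psph passed with 3 of 12 single inputs left out, which were control replicates 1 and 3 at 1 h and naive control replicate 3, and Asns with 0 of 12 (edgeR adjusted p 0.057 to 0.17). Within lane 4, with 3 naive cKI inputs against 2 naive control inputs, Psph was at -0.40 and Asns at -0.23 (edgeR adjusted p 0.069 and 0.12). In inputs 1 h after conditioning 0 of 10 members passed in edgeR, where 0.267% of genes did, and 6 of 10 had an unadjusted p under 0.05. DESeq2 called 1 member there, and over all genes 3.54 times as many as edgeR. Aldh18a1 was at -0.24, Asns at -0.17, Psph at -0.25 and Shmt2 at -0.14 (edgeR adjusted p 0.12, 0.23, 0.26 and 0.63). At this time cKI inputs carry lane 4 and control inputs lane 5, and the 2 cannot be told apart.

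In naive immunoprecipitates Mthfd2 was lower in cKI mice (log2 -0.59, SE 0.11, edgeR adjusted p 0.02), 1 of 10 members beside 3.7% of genes, or 2.5% lower. It missed the threshold on omitting replicate 2 or 3 of either naive group (edgeR adjusted p up to 0.12), and it held in 13 of 18 alternatives. All 3 naive cKI immunoprecipitates carry lane 5 and all 3 naive control ones lane 6, so lane and genotype cannot be told apart there. At 1 h Mthfd2 was at -0.49 (SE 0.11, edgeR adjusted p 0.29), and 0 of 10 members passed in edgeR beside 0.0591% of genes, with 2 of 10 at an unadjusted p under 0.05 and 0 called by DESeq2. The genotype by training interaction of Mthfd2 was 0.11 (SE 0.16, edgeR adjusted p 0.88), so its genotype difference was not shown to depend on training.

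Phgdh and Shmt1 had higher values in naive cKI immunoprecipitates without passing. Phgdh was at 3.27, 2.72 and 3.47 CPM in naive cKI immunoprecipitates, against 2.52, 1.45 and 1.81 CPM in naive control ones (log2 0.72, SE 0.26, edgeR adjusted p 0.13). Shmt1 was at 4.79, 3.07 and 3.92 CPM in naive cKI immunoprecipitates, against 3.00, 1.88 and 2.71 CPM in naive control ones (log2 0.64, SE 0.24, edgeR adjusted p 0.15). Neither pair of groups overlapped, but the share of all genes without overlap was not counted for groups of 3. Lane as a covariate rests here on the cKI libraries at 1 h, where replicate 1 alone carries lane 5. With it Phgdh was at 0.59 and Shmt1 at 0.00 (edgeR adjusted p 0.76 and 1). These levels rest on 56 to 117 counts of Phgdh and 74 to 142 of Shmt1 per library. At 1 h the values were 0.04 for Phgdh and -0.40 for Shmt1 (edgeR adjusted p 1 and 0.94). Markers of dentate granule cells moved in the same libraries: their 8 summed levels were 857 to 1180 CPM in naive cKI immunoprecipitates and 341 to 894 CPM in naive control ones (list median 1.24, 0 of 8 past edgeR's threshold, none at a count of 0). At 1 h they were 326 to 856 CPM in cKI and 308 to 858 CPM in control immunoprecipitates. Summed, the 15 astrocyte markers made 642 to 753 CPM in naive cKI immunoprecipitates and 746 to 884 CPM in naive control ones. None of them passed edgeR's threshold (0 of 15), at a list median of -0.18. The part of either marker list in the values of Phgdh, Shmt1 and Mthfd2 was not tested.

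Fear conditioning left the enzymes without a call. In each of the 4 comparisons of 1 h against naive, 0 of 10 members passed in edgeR and 0 in DESeq2, and 1 or 2 of 10 had an unadjusted p under 0.05. Over all genes 0.328% passed in control immunoprecipitates, 0.0459% in cKI immunoprecipitates, 0.737% in control inputs and 0.0174% in cKI inputs. Naive and trained mice share a lane in control immunoprecipitates (lane 6) and in cKI inputs (lane 4), whereas lane moves with training in cKI immunoprecipitates and control inputs. Shmt2 was at 15.4, 15.1 and 16.7 CPM in control inputs 1 h after conditioning, against 18.2, 20.0 and 17.9 CPM in naive control inputs, without overlap (log2 -0.23, SE 0.07, edgeR adjusted p 0.21). In the same libraries 7 of 10 oligodendrocyte markers were lower at 1 h (list median -0.43), with sums of 4030 to 4650 CPM at 1 h and 5350 to 5770 CPM in naive mice, and their part in the Shmt2 values was not tested. Phgdh was at 2.08, 1.96 and 1.84 CPM in cKI immunoprecipitates after conditioning, against 3.27, 2.72 and 3.47 CPM in naive ones, also without overlap (log2 -0.68, SE 0.26, edgeR adjusted p 0.32). For such groups of 3 the share of all genes without overlap was not counted.

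Shmt1 had opposite signs in the 2 genotypes after conditioning. In cKI immunoprecipitates it was at 3.63, 2.24 and 2.42 CPM 1 h after conditioning, against 4.79, 3.07 and 3.92 CPM in naive mice (log2 -0.50, SE 0.24, edgeR adjusted p 0.41). In control immunoprecipitates it was at 4.47, 3.06 and 3.38 CPM after conditioning, against 3.00, 1.88 and 2.71 CPM in naive mice (log2 0.53, SE 0.24, edgeR adjusted p 0.47). With lane as a covariate the values were -0.11 in cKI and 0.53 in control immunoprecipitates (edgeR adjusted p 0.97 and 0.43). The lane difference there rests on cKI replicate 1 at 1 h (3.63 CPM), which alone in its group carries lane 5. With single libraries left out the cKI value ran from -0.74 to -0.33. The interaction was -1.03 (SE 0.34, unadjusted p 0.0097, edgeR adjusted p 0.35) in immunoprecipitates, or -0.64 with lane as a covariate (edgeR adjusted p 0.98), and -0.78 (SE 0.26, unadjusted p 0.0098, edgeR adjusted p 0.87) in inputs of the same mice. Neither passed after adjustment. Of 10 members 0 passed an interaction test in edgeR or DESeq2 in either fraction, and 1 of 10 had an unadjusted p under 0.05 in each. Over all genes 0.0131% passed in immunoprecipitates and 0.0348% in inputs.

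Whether the ratio of immunoprecipitate to input differed with genotype was tested in 1 fit over 24 libraries. No member passed in edgeR (0 of 10, beside 0.0229% of 17453 genes, with 3 of 10 at an unadjusted p under 0.05 and 0 called by DESeq2). The ratio of Phgdh had a log2 difference of 0.62 (SE 0.19, edgeR adjusted p 0.23). Its log2 ratio ran from -2.72 to -1.83 in cKI mice and from -3.76 to -2.52 in control mice, so the groups overlapped. Asns was at 0.14 (SE 0.05), Shmt2 at 0.22 (SE 0.10) and Mthfd2 at -0.23 (SE 0.12), with edgeR adjusted p of 0.26, 0.28 and 0.37. The genotype difference of Asns passed in inputs and not in immunoprecipitates and that of Mthfd2 passed in immunoprecipitates and not in inputs, but the differences between fractions themselves did not pass. Psph and Aldh18a1 passed by edgeR in inputs only, yet were at -0.31 and -0.23 in inputs and -0.30 and -0.22 in immunoprecipitates. Their ratios differed with genotype by 0.03 each (SE 0.11 and 0.06, edgeR adjusted p 0.91 and 0.84).

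Genes whose levels followed an enzyme most closely were ranked by Pearson's r of log2 CPM. Points share library, mouse and depth, so r is a description. Over 24 libraries the nearest to Phgdh were Plekhg3 (r = 0.992), Ddr1 (r = 0.988) and Hdac7 (r = 0.988). The nearest to Asns were Ppp2r1a, Vps52 and Calm3 (r = 0.996 each). Both sets largely follow the difference between fractions. Mthfd2 had weaker neighbours, Neurog2 (r = 0.862), Mospd3 (r = 0.817) and Pdk2 (r = 0.802). Over the 12 immunoprecipitates alone, Axl (r = 0.955), Rcor2 (r = 0.942) and Zranb1 (r = 0.940) were nearest to Phgdh and Muc3a (r = 0.941), Cd38 (r = 0.938) and Mospd3 (r = 0.929) to Mthfd2. For Asns they included Aars (r = 0.918), a tRNA synthetase gene, and Esrra (r = 0.910).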

How the data were processed

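Values in the deposited file are raw counts that the authors made from poly(A) RNA sequenced as read pairs, with 1 row per symbol and transcript ID. Cutadapt, Bowtie and DESeq2 are listed, per the submitters' processing notes, with no role. The sources used here give no genome build, counting tool, strand setting or word on whether reads were counted over the gene or the listed transcript. Reads shared with gene copies or antisense genes therefore cannot be separated. Symbols of 92% of rows matched the gene name table. Counts were fitted in R 4.3.3 with edgeR 4.0.16 (TMM, filterByExpr, robust quasi-likelihood, 1 mean per group), per fraction for genotype and training (15238 genes in immunoprecipitates, 17232 in inputs) and over all 24 libraries between fractions (17453 genes). P-values were adjusted by Benjamini-Hochberg over all genes tested, with a threshold of 0.05. DESeq2 1.42.0, other scaling, no filter, blocks, lane, single groups and leaving out libraries were alternatives. The fits were run on simulated data that held only larger genotype differences than those reported here, in well-counted genes and without lane. That run does not cover small differences, genes of few counts or lane.

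The members, the gene and marker lists and the naming rule were chosen with earlier results of these data known. All members are named, with up to 3 genes of smallest p from each related list and, for Phgdh, Mthfd2 and Asns, the 3 genes of highest Pearson's r (log2 CPM with a prior count of 2, mean CPM of at least 1). Replicates are separate mice, and no 2 libraries of the same group agreed within sampling noise. Each mouse's immunoprecipitate and input are paired by the animal, with deviations from group means correlated at r of 0.027 to 0.32 in 12 mice. Some genes that this rule names are not reported here.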

Additional observations from a re-analysis of the deposited data

Results flagged for a closer look

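Levels in each fraction and genotype (40 groups of 6 libraries) were screened for a library far from the other 5. At the 95% critical value of Dixon's ratio (0.625 for 6 samples) chance gives about 1 flag in 20 groups, which is 2 here, and 4 were found. In naive cKI input replicate 1 Psat1 was at 110 CPM, against 97.8 to 102 CPM in the other cKI inputs. In naive control input replicate 2 Psat1 was at 122 CPM, against 108 to 113 CPM in the other control inputs, and Asns was at 91.6 CPM, against 80.7 to 84.4 CPM. In control immunoprecipitate replicate 3 at 1 h Pycr1 was at 0.111 CPM, which is 3 counts, against 0.396 to 0.5 CPM in the other control immunoprecipitates. With naive control input replicate 2 and naive cKI input replicate 3 left out together, an alternative chosen after seeing the data, the same 4 enzymes were lower in cKI inputs (Psph, Shmt2, Aldh18a1 and Asns), Asns by -0.19 on the log2 scale. Naive cKI input replicate 3 was not among the flagged libraries, and the flagged replicate 1 of that group was kept.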

How the results depend on the processing

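With lane as a covariate, the members called were 5 of 10 between fractions (9 without it), 0 for genotype in immunoprecipitates (1), 0 in inputs (4), 0 in naive immunoprecipitates (1) and 1 in naive inputs (2). Over all genes, 14996 of 17453 passed between fractions without lane and 9763 with it. Shmt1 between fractions was then 0.42, the genotype values of Shmt1, Shmt2 and Asns in immunoprecipitates -0.32, 0.10 and 0.02, and the interaction of Mthfd2 in immunoprecipitates 0.00. Naive inputs gave 0 calls within lane 4 and 0 with the 2 groups alone. With library totals in place of TMM, chosen after seeing the data, Shmt2, Mthfd2 and Aldh18a1 between fractions were -0.17, -0.13 and -0.12. DESeq2 called 7 members between fractions (9 by edgeR), and for genotype 3 in immunoprecipitates (1), 6 in inputs (4), 3 in naive inputs (2) and 1 in inputs at 1 h (0), where the 2 groups alone gave 3.

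Over all genes, those called for genotype by edgeR, in the alternatives other than single omissions, ranged from 3 to 467 in immunoprecipitates (258 as reported), 1 to 1018 in naive immunoprecipitates (564), 5 to 22 in immunoprecipitates at 1 h (9), 18 to 827 in inputs (543), 36 to 217 in naive inputs (148) and 1 to 498 in inputs at 1 h (46). DESeq2 called 778, 1285, 47 and 946 in the first 4 of these, 3.39 times the reported count in naive inputs and 163 in inputs at 1 h.

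Deviations of same-numbered libraries across groups correlated at r of -0.188 to 0.403 in immunoprecipitates and -0.114 to 0.082 in inputs. Libraries of other numbers gave -0.332 to 0.244 and -0.114 to 0.146. Fractions of the same mouse reached only 0.027 to 0.32, so these values cannot settle whether replicate numbers pair mice across groups. With the number as a replicate block 2 members were called in naive immunoprecipitates (Shmt1 added) and 0 in naive inputs, and Shmt2 lost its call in inputs over both states (edgeR adjusted p 0.07). The mouse as a replicate block changed no call of a member between fractions.

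With single libraries left out, the members called ranged from 1 to 2 for genotype in immunoprecipitates, 0 to 1 in naive immunoprecipitates, 0 to 1 in naive inputs and 0 to 2 in inputs at 1 h. Values near 0 changed sign: Shmt1 and Shmt2 for genotype in immunoprecipitates (0.00 to 0.21 and -0.07 to 0.03), Phgdh at 1 h there (-0.23 to 0.22) and Pycr1 for genotype in inputs (-0.26 to 0.03). Of all alternative values of single members 1166 kept direction and side of the threshold, 58 lost a call, 16 gained one and 15 changed sign. The causes were not tested. Depth limits Pycr1 most, with as few as 3 counts in a library.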
